A study of Mus musculus with 7 samples.

Results

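The NLRP genes transcribed in mouse oocytes other than Nlrp5 were followed in single oocytes arrested at metaphase of meiosis II (MII) that lacked or carried the histone chaperone gene Hira. The 10 genes taken were Nlrp2, Nlrp4a, Nlrp4b, Nlrp4c, Nlrp4e, Nlrp4f, Nlrp9a, Nlrp9b, Nlrp9c and Nlrp14, chosen by name from a table of 37620 gene identifiers, and all 10 were found in it. The 4 KO libraries (KO1 to KO4) are single MII oocytes with the genotype Hiraf/f, Zp3-Cre, in which Cre is driven by the promoter of the zona pellucida gene Zp3, active in growing oocytes. The 3 WT libraries (WT1, WT2 and WT4) are single MII oocytes that carry the same floxed alleles, Hiraf/f, without Cre. Both genotypes are thus floxed, and the labels name no strain, age or animal for any oocyte. No animal is named, so each genotype counts as 1 sample, no test between genotypes is reported, and the SD given below is the spread between single oocytes.

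NLRP proteins carry a PYRIN domain, a nucleotide-binding NACHT domain and leucine-rich repeats. Several family members sense microbial or damage signals and build inflammasomes in immune cells and epithelia, whereas another branch of the family is transcribed in oocytes and stored for the embryo. NLRP5, also called MATER, and NLRP2 belong to the subcortical maternal complex, a protein assembly beneath the oocyte membrane that early mouse embryos need. The Nlrp4 and Nlrp9 genes of the mouse are copies that arose by duplication, so their transcripts resemble one another. Of the genes followed here, Nlrp4f lies on chromosome 13 and the others on chromosome 7. On chromosome 7 the coding genes Nlrp9c, Nlrp4a and Nlrp9a stand next to each other in that order, and Nlrp4e stands next to Nlrp5.

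The likeness of the copies bears on how reads can be assigned, and the start of each coding sequence is shown because it lets the copies be compared base by base. The first 60 coding bases of the 5 Nlrp4 copies and the 3 Nlrp9 copies are given 5′ to 3′ from GENCODE M21 transcripts. Capitals mark bases that differ from Nlrp4a within the Nlrp4 group and from Nlrp9a within the Nlrp9 group.
Nlrp4a: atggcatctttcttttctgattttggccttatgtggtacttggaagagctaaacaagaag
Nlrp4b: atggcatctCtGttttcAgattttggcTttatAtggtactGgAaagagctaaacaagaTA
Nlrp4c: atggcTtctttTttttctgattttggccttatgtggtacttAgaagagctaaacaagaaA
Nlrp4e: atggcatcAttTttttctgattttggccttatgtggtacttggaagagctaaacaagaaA
Nlrp4f: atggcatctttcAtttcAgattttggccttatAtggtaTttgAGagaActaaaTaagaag
Nlrp9a: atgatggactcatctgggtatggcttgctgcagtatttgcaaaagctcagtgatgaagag
Nlrp9b: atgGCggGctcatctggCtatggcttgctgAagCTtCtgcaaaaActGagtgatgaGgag
Nlrp9c: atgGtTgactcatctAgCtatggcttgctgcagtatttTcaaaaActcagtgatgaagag

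Nlrp4e differed from Nlrp4a at 3 of these 60 bases, Nlrp4c at 4, Nlrp4f at 8 and Nlrp4b at 9. Nlrp9c differed from Nlrp9a at 6 bases and Nlrp9b at 11. Over whole coding sequences the closest pair was Nlrp4c and Nlrp4e, with 93.9% identity over 2934 aligned bases. Nlrp9a and Nlrp9c were 87.7% identical, Nlrp9a and Nlrp9b 84.2%, and Nlrp9b and Nlrp9c 82.8%. Nlrp4b stood furthest from its group, at 77.8% to 79.0%, and Nlrp2 and Nlrp14 were 57.5% identical to each other.

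**Figure D1:**
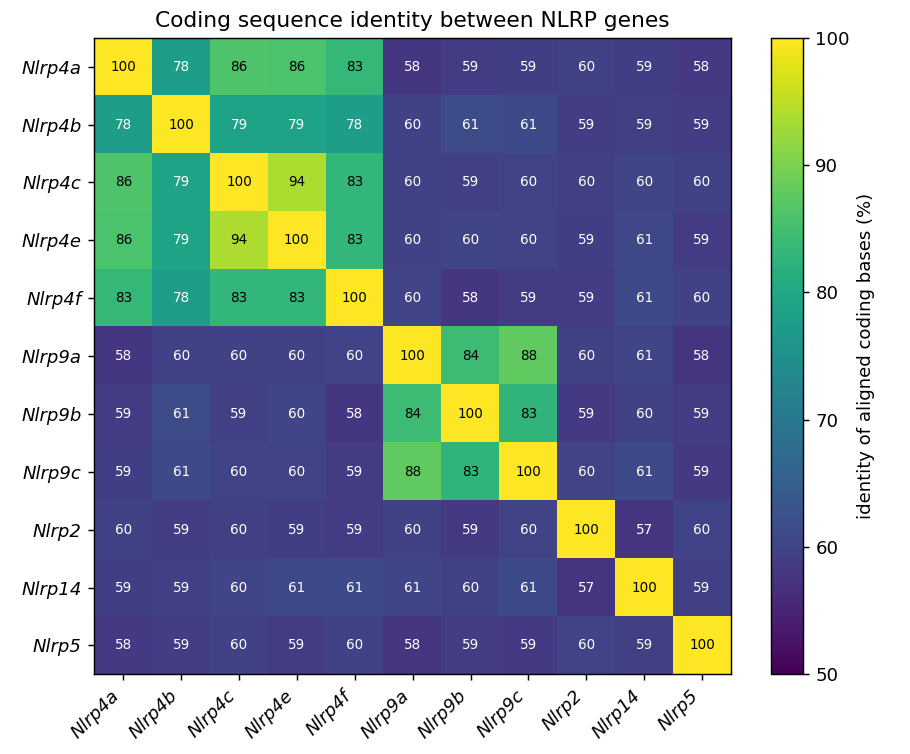
Identity of aligned coding bases (percent, colour and number) between each pair of the 10 members and Nlrp5. The Nlrp4 copies form a block with Nlrp4c and Nlrp4e as its closest pair (93.9%), and the Nlrp9 copies form a block that runs from 82.8% to 87.7%.

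Identical stretches were counted in windows of 50 bases over 1 transcript per gene. Nlrp4b and Nlrp14 had no window in common with a transcript of another gene, and Nlrp2 had 0.835% of its windows in common. The Nlrp9 copies had 4.99% to 6.54%, all with each other, Nlrp4a had 3.54%, Nlrp4f 7.08% and Nlrp4c 14.1%. Nlrp4e had the highest share, 36.9%, most of it with 5 genes that the annotation calls unprocessed pseudogenes on chromosome 7 (Gm16443, Gm8486, Gm8685, Gm8728 and Gm4541), each of which held 26.3% to 31.0% of its windows. These 5 were not analysed here. How reads with several matches were treated is not given in the sources used here, so the Nlrp4e value may include an unknown part of the reads of these copies. Values of Nlrp4c are uncertain in the same way. Gm5065, a coding gene at 114 FPKM in KO and 140.1 FPKM in WT oocytes, overlaps Nlrp2 on the opposite strand, with 0 exonic bases in common.

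Levels are in FPKM, a read count scaled by gene length and library depth, as the authors computed them. Whole reads recovered from the table came to 15887904 to 25940519 per KO library and 15340782 to 20077129 per WT library. Transcripts of Hira were at 0.078 ± 0.036 FPKM in KO oocytes and 0.317 ± 0.028 FPKM in WT oocytes, from 49 reads in all KO and 132 in all WT libraries, with no overlap. Oocyte identity was plain in both genotypes, with Gdf9 at 1165 ± 158 FPKM in KO oocytes and 1856 ± 444 FPKM in WT oocytes. The list of 12 markers of cumulus and granulosa cells had 11 genes with means under 1 FPKM in both genotypes, and 5 were at 0 in every library (Lhcgr, Amh, Amhr2, Foxl2 and Tnfaip6). Their summed level was 0.575 to 5.59 FPKM in KO oocytes and 0.031 to 0.693 FPKM in WT oocytes. The receptor gene Fshr was at 0, 2.99, 4.34 and 4.51 FPKM in KO1 to KO4 and at 0 in each WT oocyte. All 7 blood cell markers had a mean under 1 FPKM in both genotypes, with sums of 0.025 to 1.99 FPKM in KO and 0.404 to 1.62 FPKM in WT oocytes. The part of other cells in the NLRP values was not tested.

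The summed level of the 10 genes was lower in KO oocytes, while 3 of them (Nlrp4c, Nlrp4e and Nlrp9b) had higher means there. The sum was 1040.0, 1175, 1303 and 1272 FPKM in KO1 to KO4, against 1540 FPKM in WT1, 1995 in WT2 and 1774 in WT4. Every KO oocyte was below every WT oocyte, and the mean was 1198 ± 118 FPKM in KO and 1770 ± 228 FPKM in WT, a ratio of 0.677. Their reads made up 0.760% ± 0.066 of all reads in genes in KO oocytes and 1.13% ± 0.156 in WT oocytes.

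Differences between genotypes are the mean of log2(FPKM + 1) in KO less that in WT oocytes, which understates changes of low genes. The median over the 10 members was -0.53, beside 0.18 over the 8033 genes with at least 1 FPKM in at least 3 libraries, a filter that all 10 members passed. The difference was below 0 for 7 members, beside 36.2% of the 8033 genes. Members over 1.5-fold lower in KO numbered 4 (Nlrp2, Nlrp9a, Nlrp9c and Nlrp14), beside 7.92% of the 8033 genes. Over 1.5-fold higher was 1 member, Nlrp4e, beside 22.6% of the 8033 genes. In 6 members every KO oocyte was below every WT oocyte, beside 8.94% of genes, and in 1 every KO oocyte was above, beside 18.9%. A range of mean FPKM from 50 to 650, chosen after the data were seen, held 7 members, all but Nlrp2, Nlrp4c and Nlrp4e. The same shares were taken among the 720 genes with a mean in this range. Their median was -0.06, and the difference was below 0 for 55.4% of them. Over 1.5-fold lower were 11.7% and over 1.5-fold higher 10.4% of the 720 genes. No overlap was found for 20.7% of them with KO lower and for 13.5% with KO higher.

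**Figure D2:**
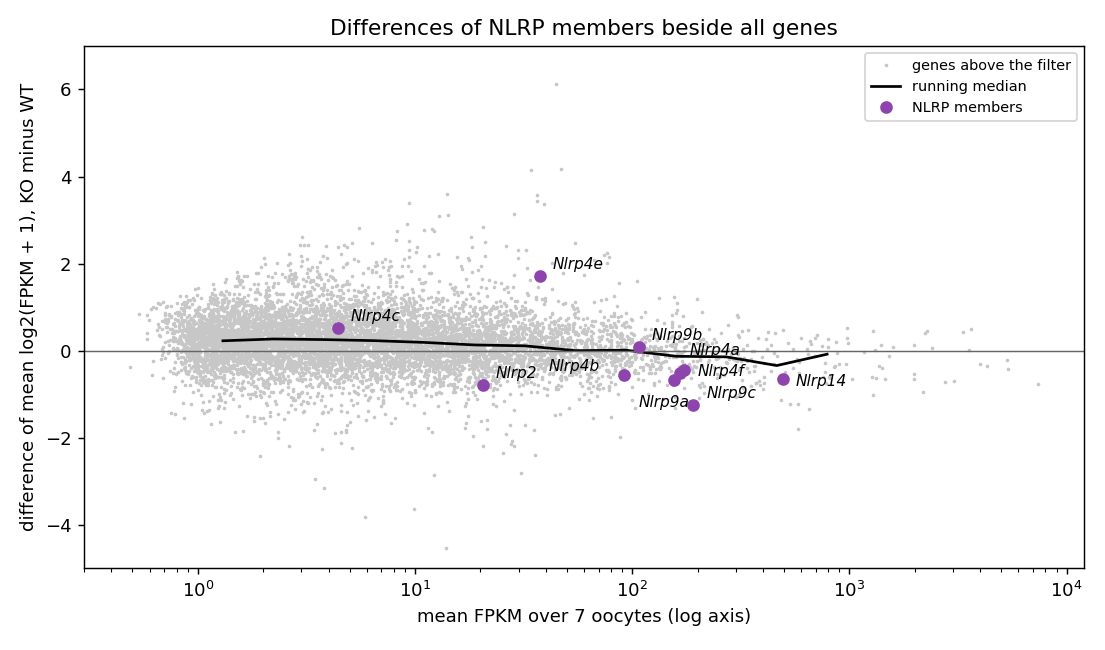
Mean log2(FPKM + 1) in KO less that in WT oocytes, against mean FPKM over the 7 oocytes (log axis) for all genes above the filter (grey), with their median along the axis (line) and the 10 members (purple). Nlrp4e lies at 1.72 and Nlrp9c at -1.25, and 7 members lie below the line of no difference.

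Nlrp14 was the most abundant of the 10 genes in both genotypes. Its protein is a maternal factor without which mouse embryos stop at an early cleavage stage, and it has been tied to the chromatin reader UHRF1 and to calcium handling. Its level was 229.8, 403, 502 and 486 FPKM in KO1 to KO4, against 522, 685 and 624 FPKM in WT1, WT2 and WT4. All KO oocytes were below all WT oocytes, although KO3 came close to WT1, and KO1 was the lowest. The mean was 405 ± 125 FPKM in KO and 610 ± 82.5 FPKM in WT oocytes, a ratio of 0.664 and a difference of -0.64. The difference was -0.39 without KO1, -0.56 without WT2 and -0.40 with quantile normalization, all inside 1.5-fold. By level Nlrp14 held rank 65 to 134 among all genes in KO oocytes and rank 56 to 69 in WT oocytes.

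Nlrp2 was a low member, and it was lower in every KO oocyte. Its protein takes part in the subcortical maternal complex, and mouse mothers without it lose embryos early. The level was 9.27, 18.1, 18.1 and 17.0 FPKM in KO1 to KO4, against 30.8, 24.2 and 26.4 FPKM in WT1, WT2 and WT4. The gap between the highest KO and the lowest WT value was wider than the spread of KO2 to KO4, while KO1 lay well below the rest. The mean was 15.6 ± 4.26 FPKM in KO and 27.2 ± 3.38 FPKM in WT oocytes, a ratio of 0.575 and a difference of -0.80. Without KO1 the difference was -0.58, which is just inside 1.5-fold.

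The 3 Nlrp9 copies parted from one another. They are known to act redundantly in keeping the pace of preimplantation development in the mouse, and Nlrp9b also senses viral RNA in the mouse intestine. Nlrp9c was at 133, 108, 128 and 111 FPKM in KO1 to KO4, against 247, 323 and 290.1 FPKM in WT1, WT2 and WT4. The KO values lay close together and far below the WT values, with a mean of 120 ± 12.1 FPKM in KO and 287 ± 38.1 FPKM in WT oocytes. This ratio of 0.419 was the lowest of the 10 members, and the difference of -1.25 exceeded 2-fold, as it did for 2.34% of the 8033 genes and 3.33% of the 720. It stayed between -1.10 and -1.49 in all 14 alternatives run.

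Nlrp9a was at 111, 121, 143 and 116 FPKM in KO1 to KO4, against 129, 259 and 217 FPKM in WT1, WT2 and WT4. WT1 lay within the KO values and the other WT oocytes above them, so the genotypes overlapped. The mean was 122 ± 14.0 FPKM in KO and 202 ± 66.4 FPKM in WT oocytes, with a difference of -0.67 that was -0.46 without WT2, -0.58 without WT4 and -0.55 with quantile normalization, all inside 1.5-fold. Nlrp9b was at 99.4, 104, 111 and 126 FPKM in KO1 to KO4, against 88.4, 124 and 102 FPKM in WT1, WT2 and WT4. These ranges overlapped almost fully. The mean was 110.1 ± 11.8 FPKM in KO and 105 ± 18.01 FPKM in WT oocytes, and the difference of 0.08 was -0.16 with median-ratio scaling and -0.04 without WT1.

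Ratios of 2 genes in the same oocyte do not change with a scaling that multiplies a whole library by 1 factor, though quantile normalization can change them. Nlrp9c over Nlrp9b was 1.33, 1.04, 1.15 and 0.882 in KO1 to KO4, against 2.80, 2.60 and 2.84 in WT1, WT2 and WT4. No KO oocyte reached a value near those of the WT oocytes, and the mean was 1.10 ± 0.190 in KO and 2.75 ± 0.127 in WT. Nlrp9a over Nlrp9b averaged 1.12 ± 0.151 in KO and 1.89 ± 0.374 in WT oocytes, and Nlrp9c over Nlrp9a 0.989 ± 0.143 in KO and 1.498 ± 0.362 in WT. Both of these ratios were also lower in every KO oocyte. Nlrp9c made up 34.1% ± 3.20 of the summed Nlrp9 level in KO oocytes and 48.8% ± 3.87 in WT oocytes, and Nlrp9b made up 31.3% ± 3.13 in KO and 17.8% ± 1.15 in WT oocytes.

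The sequences before the annotated starts of Nlrp9a and Nlrp9c are shown because these 2 copies are the closest Nlrp9 pair and were both lower on average in KO oocytes. Each runs from 250 bases before to 50 bases after a RefSeq transcript start in the build GRCm38.p6, and capitals mark the motif CCAAT on either strand. Nlrp9a is at chr7:26534773-26535072 on the plus strand and Nlrp9c at chr7:26403651-26403950 on the minus strand.
Nlrp9a: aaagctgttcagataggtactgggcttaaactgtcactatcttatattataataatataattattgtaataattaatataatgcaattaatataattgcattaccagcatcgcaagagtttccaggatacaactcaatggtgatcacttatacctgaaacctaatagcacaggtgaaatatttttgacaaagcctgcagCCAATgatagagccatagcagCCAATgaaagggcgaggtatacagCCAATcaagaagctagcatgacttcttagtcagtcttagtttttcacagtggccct
Nlrp9c: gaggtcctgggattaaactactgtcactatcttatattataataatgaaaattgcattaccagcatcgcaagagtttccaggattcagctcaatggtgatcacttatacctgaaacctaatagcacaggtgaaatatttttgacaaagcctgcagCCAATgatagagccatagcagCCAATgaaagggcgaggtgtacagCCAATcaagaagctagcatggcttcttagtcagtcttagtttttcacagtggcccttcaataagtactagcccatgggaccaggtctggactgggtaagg

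These 2 stretches were 96.8% identical over 252 aligned bases, with a shift between them because their annotated starts differ. Both hold CCAAT 3 times at the same spacing of 21 and 24 bases. One or more CCAAT were present in 37.4% of 32851 promoter windows of the same length, and 3 or more in 3.37%. The only window listed for Nlrp9b lies 16630 bases inside the gene's outermost start, so it is not the matching stretch and was not compared.

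Among the Nlrp4 copies, Nlrp4a, Nlrp4b and Nlrp4f kept similar proportions in most oocytes and were lower in every KO oocyte. Nlrp4f takes part in the subcortical maternal complex in the mouse, and embryos of mothers without it develop late. Nlrp4a was at 143, 141, 137 and 143 FPKM in KO1 to KO4, against 194, 225 and 184 FPKM in WT1, WT2 and WT4. The 4 KO values were within 1.04-fold of each other, and none reached a WT value. The mean was 141 ± 2.75 FPKM in KO and 201 ± 21.2 FPKM in WT oocytes, with a difference of -0.50. Nlrp4f was at 177, 143, 138 and 138 FPKM in KO1 to KO4, against 200.5, 226 and 185 FPKM in WT1, WT2 and WT4. KO1 came near the lowest WT value, and the difference was -0.45. Nlrp4b was at 88.2, 72.1, 70.5 and 75.1 FPKM in KO1 to KO4, against 109.7, 117 and 110.4 FPKM in WT1, WT2 and WT4. The WT values lay within 1.06-fold of each other, above all KO values, and the difference was -0.55.

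All 3 of these differences were inside 1.5-fold as deposited and outside it with median-ratio scaling, at -0.75 for Nlrp4a, -0.70 for Nlrp4f and -0.80 for Nlrp4b. Nlrp4a over Nlrp4f was 0.955 ± 0.101 in KO and 0.986 ± 0.016 in WT oocytes, and Nlrp4b over Nlrp4a was 0.542 ± 0.050 in KO and 0.561 ± 0.040 in WT oocytes. Both ratios overlapped between genotypes. In KO1 they were 0.807 and 0.616, against 0.984 to 1.03 and 0.511 to 0.526 in KO2 to KO4.

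Nlrp4e was the 1 member over 1.5-fold higher in KO oocytes. Lowering its transcript in mouse oocytes is known to stop embryos during cleavage. It was at 46.2, 59.3, 49.98 and 54.9 FPKM in KO1 to KO4, against 15.7, 6.74 and 31.8 FPKM in WT1, WT2 and WT4. All KO values exceeded all WT values, and the KO values were even (1.28-fold from lowest to highest) while the WT values spread over 4.72-fold. The mean was 52.6 ± 5.68 FPKM in KO and 18.1 ± 12.7 FPKM in WT oocytes, a ratio of 2.91. The ratio was 2.21 without WT2 and 4.68 without WT4. The difference of 1.72 exceeded 3-fold on the log2(FPKM + 1) scale, as it did for 2.25% of the 8033 genes and 1.25% of the 720. Past 2-fold higher were 7.95% of the 8033 genes and 2.92% of the 720. Nlrp4e itself is not among the 720, because its mean over the 7 oocytes is below 50 FPKM. The difference ran from 1.19 to 2.23 over the 14 alternatives.

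Its reads numbered 3030, 4787, 5301 and 4807 in KO1 to KO4, against 1087, 549 and 1965 in WT1, WT2 and WT4, for 17925 in all KO libraries (exact 95% Poisson interval 17664 to 18189) and 3601 in all WT libraries (3484 to 3721). These intervals cover counting error only, and the spread between oocytes was wider. Set against Nlrp4a in the same oocyte, Nlrp4e was at 0.323, 0.421, 0.365 and 0.384 in KO1 to KO4, against 0.081, 0.030 and 0.173 in WT1, WT2 and WT4. Nlrp4e made up 12.5% ± 1.70 of the summed Nlrp4 level in KO oocytes and 3.45% ± 2.54 in WT oocytes. Among WT oocytes WT2 had the lowest Nlrp4e and the highest summed level of the family.

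**Figure D3:**
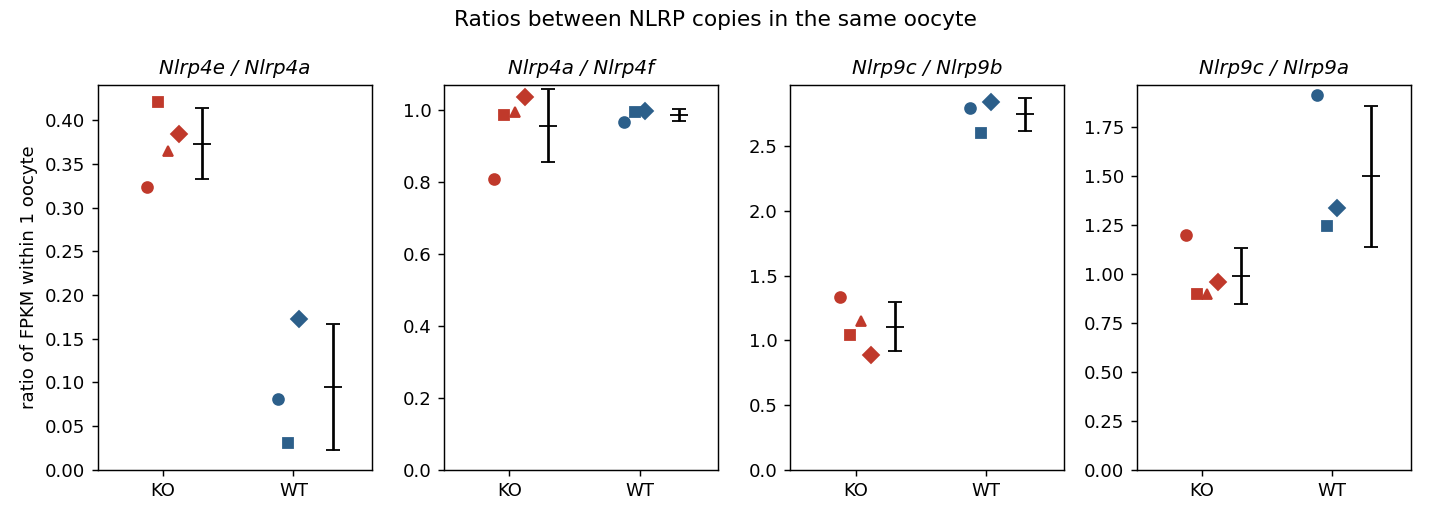
Ratio of the FPKM of 2 NLRP copies within each oocyte, for 4 KO (red) and 3 WT oocytes (blue), with the mean and SD beside them in black. Nlrp4e over Nlrp4a is higher and Nlrp9c over Nlrp9b and over Nlrp9a lower in every KO oocyte, while Nlrp4a over Nlrp4f overlaps.

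Nlrp4c, the closest copy of Nlrp4e, was the lowest member and leaned the same way. It was at 3.36, 6.02, 6.01 and 5.50 FPKM in KO1 to KO4, against 2.41, 4.34 and 3.31 FPKM in WT1, WT2 and WT4. KO2 to KO4 were above all WT oocytes and KO1 lay among them. The mean was 5.22 ± 1.27 FPKM in KO and 3.36 ± 0.964 FPKM in WT oocytes, with a difference of 0.51 that was 0.67 without WT2, 0.68 without KO1 and 0.26 with quantile normalization. Nlrp4c and Nlrp4e share 9.17% of the 50-base windows of Nlrp4c, whose reads numbered 264 to 764 per KO and 200 to 424 per WT library, so part of either value may come from the other gene.

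Promoter sequences of Nlrp4 copies are shown because an inner start of Nlrp4a matches the starts of Nlrp4b and Nlrp4c over most of the window. The window of Nlrp4e matches them only over short stretches. That of Nlrp4f, not printed, begins with bases that match the end of the inner Nlrp4a window, 91.1% identical over 45 aligned bases. With the second listed window of Nlrp4b it was 86.25% identical over 80. Its window is thus offset downstream, and the sequence before it was not compared. The windows are built as above, with CCAAT on either strand in capitals. The second listed start of Nlrp4a, which lies 501 bases inside its outermost start, is at chr7:26435364-26435663, the outermost start of Nlrp4b at chr7:10687543-10687842, Nlrp4c at chr7:6044911-6045210 and Nlrp4e at chr7:23300942-23301241, all on the plus strand of GRCm38.p6.
Nlrp4a: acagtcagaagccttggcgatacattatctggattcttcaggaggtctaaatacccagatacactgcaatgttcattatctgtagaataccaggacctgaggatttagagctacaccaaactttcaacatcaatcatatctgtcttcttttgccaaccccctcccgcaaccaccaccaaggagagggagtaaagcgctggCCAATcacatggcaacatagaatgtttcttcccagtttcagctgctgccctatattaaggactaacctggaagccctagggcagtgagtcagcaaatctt
Nlrp4b: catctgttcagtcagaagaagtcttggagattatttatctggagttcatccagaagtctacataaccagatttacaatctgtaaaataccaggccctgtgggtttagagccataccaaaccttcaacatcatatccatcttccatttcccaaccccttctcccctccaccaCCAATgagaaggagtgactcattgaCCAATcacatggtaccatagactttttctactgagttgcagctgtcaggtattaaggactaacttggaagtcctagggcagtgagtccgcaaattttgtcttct
Nlrp4c: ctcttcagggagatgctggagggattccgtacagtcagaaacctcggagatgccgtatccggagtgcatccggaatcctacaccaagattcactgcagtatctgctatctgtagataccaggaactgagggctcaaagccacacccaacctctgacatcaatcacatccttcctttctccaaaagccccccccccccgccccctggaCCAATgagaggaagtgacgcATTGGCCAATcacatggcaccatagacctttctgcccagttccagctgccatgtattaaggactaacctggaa
Nlrp4e: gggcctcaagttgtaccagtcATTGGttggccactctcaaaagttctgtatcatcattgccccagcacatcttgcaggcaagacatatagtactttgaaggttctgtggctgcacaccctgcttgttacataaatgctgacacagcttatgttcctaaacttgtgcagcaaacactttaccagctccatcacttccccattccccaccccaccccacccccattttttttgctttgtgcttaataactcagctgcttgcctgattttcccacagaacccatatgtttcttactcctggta

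At its inner start Nlrp4a was 80.7% identical to Nlrp4b over 280 aligned bases and 78.3% identical to Nlrp4c over 263, and Nlrp4b and Nlrp4c were 80.2% identical over 257. The window at the outermost start of Nlrp4a aligned with Nlrp4b over 18 bases and with Nlrp4c over 24, and held no CCAAT. The best match of Nlrp4e to Nlrp4c covered 37 bases. CCAAT lay 50 bases before the inner start of Nlrp4a, and 79 and 54 bases before the outermost start of Nlrp4b. In Nlrp4c it lay 43, 23 and 18 bases before the start, with the last pair side by side on opposite strands. In Nlrp4e it lay 229 bases before the annotated start. Of the 9 members with a promoter entry, 7 held CCAAT (37.4% of all windows) and 8 held CANNTG (72.3%). A member counts if any of its listed windows holds the motif, as Nlrp4a does for CCAAT through its inner start only. The shares are per single window, so they are not fully comparable. TAATTA was present in 1 member, Nlrp9a (5.29% of all windows), TAATTG in 2, Nlrp9a and Nlrp9b (8.0%), and TATAAA in 1, Nlrp9b (13.6%). The entry counted for Nlrp9b is the window 16630 bases inside its outermost start. Its hits, and its lack of CCAAT, thus do not describe the sequence before that start. The TATAAA of this window was on the opposite strand only, read as TTTATA along the gene. Nlrp14 had no entry.

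**Figure D4:**
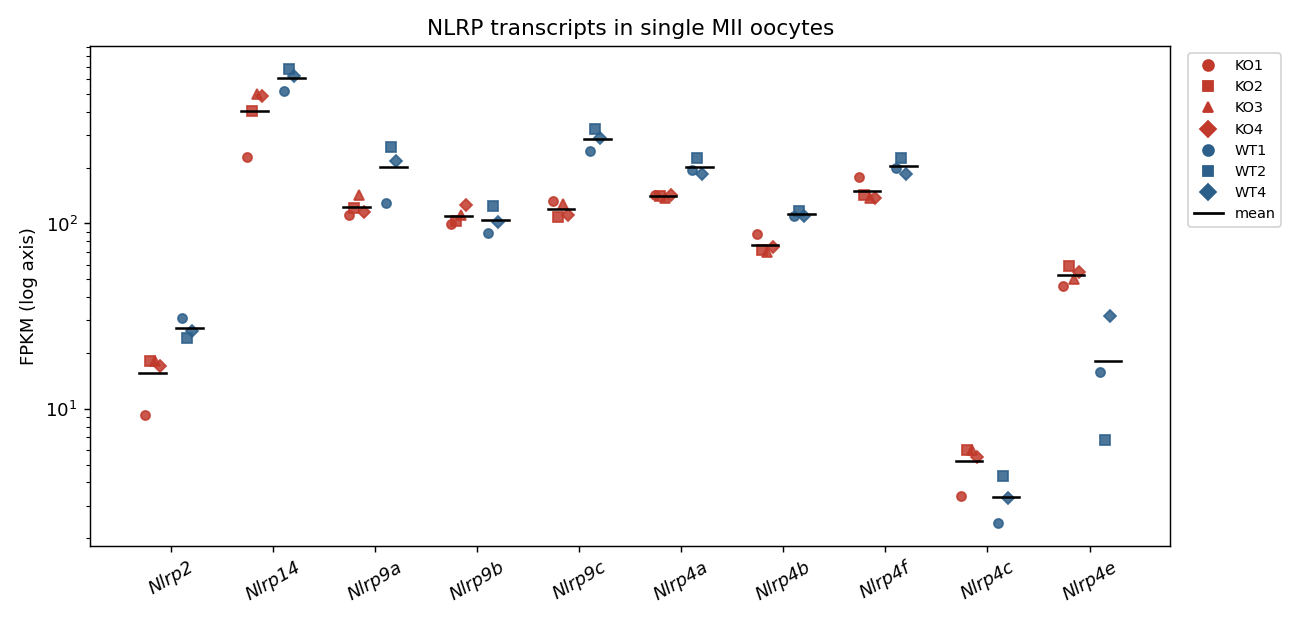
FPKM (log axis) of the 10 NLRP genes in each of 4 KO (red) and 3 WT single oocytes (blue), with the mean of each genotype as a bar and a symbol for each oocyte. Nlrp4e is higher in every KO oocyte, Nlrp2, Nlrp14, Nlrp9c, Nlrp4a, Nlrp4b and Nlrp4f are lower in every KO oocyte, and the others overlap.

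The order of the mean levels differed between genotypes. In KO oocytes the means ran from Nlrp14 over Nlrp4f, Nlrp4a, Nlrp9a, Nlrp9c, Nlrp9b, Nlrp4b, Nlrp4e and Nlrp2 to Nlrp4c. The neighbours from Nlrp4f to Nlrp9b overlapped between oocytes, and the others did not. In WT oocytes the order was Nlrp14, Nlrp9c, Nlrp4f, Nlrp9a, Nlrp4a, Nlrp4b, Nlrp9b, Nlrp2, Nlrp4e and Nlrp4c. There Nlrp4f, Nlrp9a and Nlrp4a overlapped, as did Nlrp4b with Nlrp9b and Nlrp2 with Nlrp4e. Nlrp4e held rank 670 to 848 among all genes in KO oocytes and rank 1129 to 3177 in WT oocytes.

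Nlrp5, the neighbour of Nlrp4e and the best known member of the wider family, did not separate the genotypes. It was at 187, 272, 499 and 335 FPKM in KO1 to KO4, against 231, 217 and 520.0 FPKM in WT1, WT2 and WT4, with means of 323 ± 132 FPKM in KO and 323 ± 171 FPKM in WT oocytes. None of the 6 genes of the subcortical maternal complex list (Nlrp5, Ooep, Tle6, Khdc3, Padi6 and Zbed3) was over 1.5-fold apart. Of the 8033 genes 7.92% were over 1.5-fold lower and 22.6% over 1.5-fold higher. The median difference of the list was 0.08. Nlrp2 and Nlrp4f, also of this complex, are not on the list. Their differences were -0.80 and -0.45, with every KO oocyte below every WT oocyte. Ooep, a core subunit, was at 227 ± 25.4 FPKM in KO and 191 ± 48.6 FPKM in WT oocytes. Tle6, its co-repressor-like partner, was at 15.1 ± 3.78 FPKM in KO and 19.6 ± 9.28 FPKM in WT oocytes. Padi6 was at 161 ± 66.1 FPKM in KO and 180 ± 37.5 FPKM in WT oocytes, and Zbed3 at 2056 ± 462 FPKM in KO and 1895 ± 586 FPKM in WT oocytes.

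A list of other NLR genes, with NLRs that act in immunity and the further copies Nlrp4d and Nlrp4g, was mostly at or near 0. Of 19 listed, 18 were matched (all but Nlrp4g), 9 were listed at 0 in every library and 2 passed the filter. Nlrp4d was at 0.011 FPKM in KO3 and listed at 0 in every other library. Nlrc4, which forms an inflammasome with NAIP proteins in macrophages and intestine, was at 3.82, 3.72, 4.45 and 2.27 FPKM in KO1 to KO4, against 16.8, 13.3 and 10.2 FPKM in WT1, WT2 and WT4. Every KO oocyte was below every WT oocyte, and the difference was -1.66. Naip1, the mouse sensor of needle proteins, was at 3.50 ± 1.67 FPKM in KO and 2.33 ± 1.48 FPKM in WT oocytes, with overlap. The inflammasome adaptor Pycard had a mean of 0.169 FPKM in KO oocytes and was listed at 0 in WT oocytes. Of 10 partner genes 3 passed the filter, 1 over 1.5-fold higher and 1 over 1.5-fold lower, beside 22.6% and 7.92% of the 8033 genes. The protease Casp8 was at 19.6 ± 5.25 FPKM in KO and 9.55 ± 4.29 FPKM in WT oocytes, and Txnip, a thioredoxin inhibitor, at 89.6 ± 14.7 FPKM in KO and 143 ± 4.06 FPKM in WT oocytes.

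Among 5 genes whose proteins work with NLRP14 or NLRP2, 4 passed the filter. Over 1.5-fold lower was 1, beside 7.92% of the 8033 genes, and none was higher, beside 22.6%. The median of the 4 differences was -0.31. Uhrf1, which guides maintenance of DNA methylation, was at 74.6 ± 7.36 FPKM in KO and 94.8 ± 6.78 FPKM in WT oocytes, without overlap. Ywhae, a 14-3-3 protein, was at 209 ± 17.7 FPKM in KO and 315 ± 37.4 FPKM in WT oocytes. Dnmt1 was at 157 ± 36.5 FPKM in KO and 142 ± 25.1 FPKM in WT oocytes, and Slc8b1, the mitochondrial sodium-calcium exchanger, had a mean of 0.063 FPKM in KO oocytes and was listed at 0 in WT oocytes.

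Of 8 oocyte transcription factor genes, 7 were matched and 6 passed the filter. Over 1.5-fold higher were 3, beside 22.6% of the 8033 genes, and 0 were over 1.5-fold lower, beside 7.92%. The median of the 6 differences was 0.58. Taf4b, an oocyte-rich subunit of TFIID, was at 15.1 ± 1.62 FPKM in KO and 5.27 ± 1.59 FPKM in WT oocytes. Sohlh2, a helix-loop-helix factor of early oocytes, was at 2.96 ± 1.43 FPKM in KO and 1.23 ± 0.721 FPKM in WT oocytes, with overlap. Of the 8 oocyte markers 5 were over 1.5-fold lower, beside 7.92% of the 8033 genes and 11.7% of the 720. Over 1.5-fold higher were 0, beside 22.6% of the 8033 genes and 10.4% of the 720. The median of the 8 differences was -0.65, beside -0.53 for the NLRP genes. Of the 5 lower markers only Zp2 had a mean within the FPKM range of the 720. Gdf9, Bmp15, Oosp1 and Dppa3 lay above that range, so the shares of the 720 are not matched to their levels. Dppa3, a maternal chromatin factor, was at 5718 ± 1020.1 FPKM in KO and 9676 ± 285 FPKM in WT oocytes. Oosp1, an oocyte-secreted protein, was at 1592 ± 264 FPKM in KO and 2496 ± 274 FPKM in WT oocytes. The zona genes Zp2 and Zp3 overlapped, with differences of -1.01 and -0.26, as did the kinase gene Mos at 0.14. Bmp15, an oocyte growth factor, was at 656 ± 89.6 FPKM in KO and 1022 ± 147 FPKM in WT oocytes. Of 4 markers of intestinal epithelium, where Nlrp9b is also known, 2 passed the filter. Of these 1 was over 1.5-fold higher and 1 over 1.5-fold lower, beside 22.6% and 7.92% of the 8033 genes. Vil1, which encodes the microvillus protein villin, was at 7.73 ± 1.22 FPKM in KO and 3.64 ± 1.45 FPKM in WT oocytes, and the keratin gene Krt20 at 0.645 ± 0.567 FPKM in KO and 1.65 ± 0.389 FPKM in WT oocytes.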

How the data were processed

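RNA of single MII oocytes was amplified to cDNA with the SMARTer Ultra Low Input kit, fragmented and sequenced, with ERCC RNA added beforehand, per the labels' protocols. The authors deposited 1 table of FPKM per Ensembl gene and oocyte, which is not logged. The build mm9 and the tools edgeR 3.1.10, HTSeq, TopHat2 2.0.2 and Bowtie 0.12.8 are named, without roles, per the submitters' processing notes. Symbols came from GENCODE M21, which named 87.4% of identifiers and 97.4% of the 8033 filtered genes. Sequences are of GRCm38, promoters from RefSeq, and no coordinate was moved between builds.

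Whole reads were recovered from steps in the FPKM for all 18300 genes with a value (tolerance 0.001). Each gene was given the smallest whole reads that match its steps, so counts that share a divisor may come out too low. Genes seen in few libraries are the least certain, and for 2437 genes seen in 1 library the count is the smallest possible. Means of log2(FPKM + 1) were set side by side after a filter of 1 FPKM in 3 libraries, in Python 3.11.15, and the procedure was tested on simulated data. Genes named are the members, Nlrp5, Hira, per list the 2 filtered genes with the largest difference and any with a mean of at least 100 FPKM, and the 5 genes most like the members' sum. Pycard, Slc8b1, Nlrp4d, Gm5065, the markers at 0 and the neighbours Igsf23, Ceacam20 and Mfsd14b were named after their values were seen. Members and lists were chosen with earlier results of these data known. CCAAT and 4 other motifs were chosen after the promoters were read. The labels do not pair oocytes, and amplified reads without molecular identifiers are not independent molecules.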

Additional observations from a re-analysis of the deposited data

Results flagged for a closer look

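Among 15 sets of 4 KO values examined, 3 held 1 oocyte that stood apart from the other KO oocytes. The limit used flags about 1 in 20 sets of independent, normally spread values. These sets share the same oocytes and some are sums of members, so their count cannot be set against that rate. The lowest Nlrp2 value, 9.27 FPKM in KO1 against 17.0 to 18.1 FPKM in the other KO oocytes, was separated by 0.871 of the range. The highest Nlrp4f value, 177 FPKM in KO1 against 138 to 143 FPKM in the others, was separated by 0.863 of the range. Without KO1 the difference was -0.58 for Nlrp2 and -0.54 for Nlrp4f. Hira was lowest in KO3, at 0.024 FPKM against 0.0941 to 0.0997 FPKM in the others, a gap of 0.926 of the range. This gap rests on few reads, 5 in KO3 against 12, 15 and 17 in KO1, KO2 and KO4, and Hira is below the filter. The cause of these 3 gaps was not tested.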

How the results depend on the processing

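The direction of the summed level, of the median and of every member other than Nlrp9b was the same in all 14 alternatives. These were 2 scalings, 2 pseudocounts, 2 filters, pairing by number and 7 single libraries left out. Not all could change a result: the 2 filters cannot act on single members or the sum, nor the 2 pseudocounts on the sum. Pairing by number leaves out KO3, so its differences were the same as without KO3. The summed level differed by -0.56 (log2) and by -0.81 with median-ratio scaling. The median of the members was -0.77 with median-ratio scaling and -0.39 with quantile normalization, while the median over all genes was 0.18 as reported, -0.01 with median-ratio scaling and 0.0021 with quantile normalization. Members over 1.5-fold lower numbered 4, but 7 with median-ratio scaling and 2 with quantile normalization, and 2 to 4 with 1 library left out (2 without WT2). Nlrp9a and Nlrp14 were the members lost with quantile normalization and without WT2. Members over 1.5-fold higher numbered 1, but 2 with a pseudocount of 0.1, and 1 to 2 with 1 library left out (2 without KO1 or WT2, where Nlrp4c joined Nlrp4e). Members with every KO oocyte higher numbered 1, and 1 to 2 with 1 library left out. Members with every KO oocyte lower numbered 6, with 6 to 7 in those settings and 4 with quantile normalization. Nlrp9b was at -0.16 with median-ratio scaling and at -0.04 without WT1.

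Libraries with the same number in both genotypes did not deviate together: the correlations of their deviations were 0.11, -0.12 and -0.04. With such a replicate block the summed level differed by -0.60, and 2 members were higher in KO in all 3 pairs.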

Other observations

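The genes whose levels over the 7 libraries were most like the summed level of the NLRP members were Bpgm, Trmt11, AI987944, Mdm4 and Nmd3, among 2731 genes with a mean of at least 10 FPKM. Pearson's r on the log2 scale was 0.997 for Bpgm, which encodes bisphosphoglycerate mutase, and 0.981 to 0.993 for the others. The points share their library scaling and fall into the 2 genotypes. Bpgm was at 485 ± 54.1 FPKM in KO and 742 ± 84.0 FPKM in WT oocytes. Mdm4, an inhibitor of p53, was at 491 ± 25.02 FPKM in KO and 708 ± 67.8 FPKM in WT oocytes.

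Among the coding genes up to 2 places from a member on its chromosome, 3 other than NLRP genes passed the filter. Igsf23, near Nlrp9b, was at 11.1 ± 1.28 FPKM in KO and 9.17 ± 0.817 FPKM in WT oocytes. Ceacam20, beside Nlrp9b, was at 16.2 ± 4.16 FPKM in KO and 21.7 ± 1.29 FPKM in WT oocytes. Mfsd14b, near Nlrp4f, was at 97.4 ± 9.20 FPKM in KO and 76.4 ± 7.23 FPKM in WT oocytes.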
